A study of Solanum lycopersicum with 18 samples.

Results

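The loci described here are stretches of tomato sequence that the transcript assembly of the study placed outside every annotated gene and that are at most 300 bp long. They were chosen as the entries with no reference gene ID and a locus length of 300 bp or less in each variety. This gave 138 of 35773 loci in San Marzano (SM), 155 of 35627 in Vesuviano (RSV) and 104 of 35566 in Heinz (H), or 397 of 106966 entries over the 3 varieties. The loci are named by the identifier that the assembly gave them (XLOC), which is specific to a variety, and the deposited expression files give no function for them.

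Annotation-guided transcript assembly starts from known gene models and adds a new locus wherever aligned reads pile up outside them. Such loci can hold non-coding RNA, untranslated ends that the annotation misses, transposable elements or copies of organelle and ribosomal sequence, and a length alone does not tell these apart. FPKM, the unit of all values given here, in its plain form divides the fragments of a locus by its length and by the sequenced fragments of the library. At short length, few fragments then already make a high value. Which length entered the deposited values was not tested. The paper selected library fragments by size, in a range around 300 bp, and the effect of this on the FPKM of shorter loci was not tested. Levels are therefore given as FPKM and not as amounts of RNA.

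RNA was sequenced from whole red ripe field-grown fruit of the local varieties SM and RSV and of H, the variety whose genome is the tomato reference, each grown at Acerra and at Sarno in southern Italy. Every variety and location had 3 libraries, which makes 18 in all, and within a variety the groups are labelled by location only. As the paper lists them, every Sarno library of SM and of RSV had more sequenced fragments than every Acerra library of that variety. In SM, every Sarno library also had a higher mapped percentage than every Acerra library. In H, the fragment numbers of the locations overlapped. The part of these differences in the results below was not tested. Fruit was pooled by plot and divided into aliquots, and the methods do not state whether the 3 libraries of a group are separate plots. If they are aliquots of 1 pool, the SDs and p-values given here measure only the spread between these libraries. The reads of H went to the SL2.40 reference genome, while SM and RSV each had an assembly of their own, so coordinates and levels are compared across varieties as descriptions only.

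The labelled tissue was checked with 5 ripening genes, among them the fruit ripening gene E8 and polygalacturonase 2a, and with 5 photosynthesis genes of green tissue. The ripening genes summed to between 6486 and 21640 FPKM in every library. The photosynthesis genes summed to between 2.97 and 4.41 FPKM in the Acerra libraries and between 3.74 and 22.8 FPKM in the Sarno libraries, and the part of that difference in the results below was not tested. Phytoene synthase 1 (Solyc03g031860), the carotenoid enzyme of ripening fruit, had 4098, 3583 and 3250 FPKM in the SM Acerra libraries but was listed at 0 in all 3 SM Sarno libraries. An exact 0 in these files is therefore given as listed and not as absence of RNA. The files hold neither read counts nor library depths. The paper lists the sequenced fragments and mapped percentage of each library. These did not enter any value or test given here, so no counting interval accompanies a single value. In fruit RNA, fewer cells of a type and less RNA per cell cannot be told apart.

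The short unannotated loci had high FPKM relative to the other loci, and the shortest of them held most of their summed FPKM. Their median level over 6 libraries was 55.9 FPKM in SM, 43.2 FPKM in RSV and 38.7 FPKM in H, against 0.683, 0.843 and 0.639 FPKM for longer unannotated loci and 0.924, 0.990 and 0.978 FPKM for longer annotated loci. A mean of at least 1000 FPKM was reached by 25 of 138 short loci in SM, 19 of 155 in RSV and 16 of 104 in H. Among all longer unannotated loci, this level was reached by 1 in SM, 3 in RSV and 0 in H. All but 1 locus in each variety averaged at least 0.5 FPKM, and 118 in SM, 132 in RSV and 88 in H were above 0 in all 6 libraries of the variety.

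Up to 300 bp, level fell with length in every variety. Median length was 175.5 bp in SM, 176 bp in RSV and 167.5 bp in H, with a shortest locus of 103, 103 and 102 bp. Loci of at most 110 bp had a median level of 8013 FPKM in SM, 17941 FPKM in RSV and 12383 FPKM in H. Loci over 250 bp and up to 300 bp had median levels of 5.77 FPKM in SM, 5.84 FPKM in RSV and 4.44 FPKM in H. Across loci, Spearman's correlation between length and mean level was −0.77 in SM (n = 138), −0.75 in RSV (n = 155) and −0.73 in H (n = 104). These correlations are a description only, since length enters the unit itself and all loci of a variety share the same 6 libraries. The 8, 5 and 5 loci of at most 110 bp held 62.9% of the FPKM of all short unannotated loci in SM, 61.4% in RSV and 69.6% in H.

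**Figure D1:**
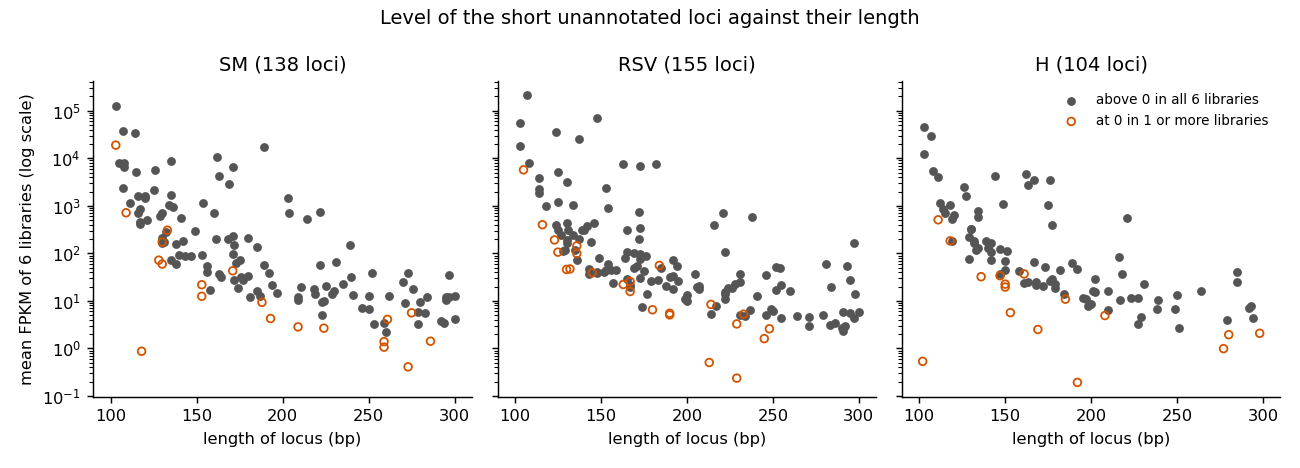
Mean FPKM of each short unannotated locus over the 6 libraries of a variety (vertical axis, log scale) against its length in bp, with one panel each for SM, RSV and H. Open symbols mark loci at 0 in 1 or more libraries, and levels fall by several orders of magnitude between about 100 and 300 bp, with class medians of 8013 FPKM at most 110 bp and 5.77 FPKM over 250 bp in SM.

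The limit of 300 bp did not mark a break in level. In SM, the longest loci inside it were XLOC_008644 and XLOC_035740, both 300 bp long, with means of 4.05 and 12.7 FPKM, and the shortest outside were XLOC_025393 (301 bp, 1.95 FPKM) and XLOC_000914 (303 bp, 3.14 FPKM). In RSV, XLOC_010660 (298 bp, 13.8 FPKM) and XLOC_025271 (300 bp, 5.85 FPKM) lay inside, and XLOC_008576 (303 bp, 1.86 FPKM) and XLOC_035533 (310 bp, 7.25 FPKM) outside. In H, XLOC_014692 (294 bp, 4.44 FPKM) and XLOC_005077 (298 bp, 2.08 FPKM) lay inside, and XLOC_010636 (301 bp, 12.3 FPKM) and XLOC_017184 (306 bp, 11.9 FPKM) outside. Unannotated loci over 300 bp and up to 350 bp had median levels of 4.35 FPKM in SM, 6.13 FPKM in RSV and 2.17 FPKM in H, so the RSV median was slightly higher than just inside the limit. Those over 350 bp and up to 400 bp had medians of 2.47, 2.91 and 1.24 FPKM, and those over 500 bp and up to 1000 bp had medians of 0.503 FPKM in SM, 0.636 FPKM in RSV and 0.510 FPKM in H.

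Short unannotated loci occurred on each of the 12 chromosomes and on the sequence not placed on any of them, which is numbered chromosome 0. In SM their number was between 6, on chromosomes 3 and 4, and 16, on chromosomes 7 and 11. In RSV it was between 4, on chromosome 4, and 17, on chromosomes 1 and 6. In H it was between 5, on chromosomes 0 and 4, and 11, on chromosomes 6 and 9. Chromosome 0 held 5.80% of the short unannotated loci of SM, 7.10% of those of RSV and 4.81% of those of H, against 2.69%, 2.68% and 2.69% of all loci.

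Their FPKM was spread far less evenly than their number. Chromosome 4, with few loci, held 37.8% of the FPKM of short unannotated loci in SM, 11.3% in RSV and 33.8% in H. Chromosome 0 held 26.1% in SM, 52.4% in RSV and 23.6% in H. The RSV value includes XLOC_000900, for which Sarno replicate 3 held 78.5% of the sum over its libraries. Chromosome 5, with 10, 11 and 8 loci, held 0.0863%, 0.0530% and 0.156%. The 10 loci with the highest means made up 83.4% of the FPKM of short unannotated loci in SM, 91.7% in RSV and 86.5% in H.

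None of the short unannotated loci overlapped an annotated locus. The median distance to the nearest annotated gene was 6503 bp in SM, 7169 bp in RSV and 6826 bp in H, and 20, 22 and 17 loci lay within 1000 bp of a gene. The nearest gene itself averaged at least 0.5 FPKM for 50 of 138 loci in SM (36.2%), 64 of 155 in RSV (41.3%) and 38 of 104 in H (36.5%). Of all annotated loci, 50.1%, 50.6% and 50.3% reached that level. The short locus was above its nearest gene for 123 loci in SM, 136 in RSV and 92 in H. Across loci, Spearman's correlation between the mean levels of locus and nearest gene was −0.01 in SM (n = 138), −0.12 in RSV (n = 155) and −0.12 in H (n = 104), again as a description only.

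The highest locus of SM was XLOC_014842 (103 bp, chr4:36921020-36921122), between Solyc04g047830 and Solyc04g047850. It had 43473, 61465 and 63481 FPKM in the Acerra libraries, against 418428, 84948 and 72553 FPKM in the Sarno libraries. All Sarno libraries lay above all Acerra libraries, and Sarno replicate 1 stood far above the other 5. On log2(FPKM + 0.5), the scale of all fold changes given here, with Acerra over Sarno, the difference was −1.31 (SE 2.62, adjusted p = 0.785, limma with Benjamini-Hochberg adjustment over all loci tested) and did not pass. The SE is limma's moderated one, which is drawn toward the trend over all loci of similar level. The next loci of SM, both on chromosome 0, were XLOC_000906 (107 bp, mean 38181 FPKM) and XLOC_000934 (114 bp, mean 34194 FPKM).

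The highest locus of RSV was XLOC_000900 (107 bp, chr0:9546364-9546470), between Solyc00g009800 and Solyc00g010210. It had 28337, 31461 and 19140 FPKM in the Acerra libraries, against 113683, 79036 and 993065 FPKM in the Sarno libraries. The groups did not overlap, and Sarno replicate 3 held most of the sum over the 6 libraries. The log2 fold change was −3.01 (SE 1.59), with a limma adjusted p of 0.255 by Benjamini-Hochberg. XLOC_027932 (148 bp, chr9:35813161-35813308), between Solyc09g055350 and Solyc09g055360, had 54941, 64395 and 48723 FPKM in Acerra, against 49007, 32737 and 165278 FPKM in Sarno. Here the Sarno libraries lay on both sides of the Acerra ones. XLOC_014765 averaged 54502 FPKM.

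The highest locus of H was XLOC_014738 (103 bp, chr4:36984210-36984312), which lies between the same genes as XLOC_014842 of SM and XLOC_014765 of RSV. It had 56587, 69121 and 54339 FPKM in the Acerra libraries, against 28676, 37237 and 25827 FPKM in the Sarno libraries. All Acerra libraries were above those of Sarno, and the log2 fold change was 0.98 (limma adjusted p = 0.268, Benjamini-Hochberg). XLOC_000904 (107 bp, chromosome 0) averaged 30165 FPKM and XLOC_022694 (103 bp, chromosome 7) 12383 FPKM. A list of unannotated H loci, in the portion used here, describes 4 of the short ones by similarity. XLOC_005156 (163 bp, mean 2774 FPKM) is described as an intron-encoded homing endonuclease of ribosomal RNA genes, an enzyme that cuts DNA at the site where its own intron inserts. XLOC_005104 (158 bp, 42.8 FPKM) is described as a pol polyprotein, which carries the enzymes of a retroelement. XLOC_008464 (126 bp, 2497 FPKM) is described only as a conserved protein. XLOC_008471 (279 bp, 3.94 FPKM) is described as subunit 3 of succinate dehydrogenase, a mitochondrial enzyme.

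The short unannotated loci held a share of the summed FPKM of a library that differed widely between libraries. In SM they held 20.8%, 11.6% and 17.1% in Acerra (16.5% ± 4.65, SD, n = 3), against 48.5%, 34.3% and 28.9% in Sarno (37.2% ± 10.1, SD, n = 3). All Sarno libraries were above all Acerra libraries, a difference of −20.7 percentage points for Acerra minus Sarno. The exact two-sided permutation test gave p = 0.1, the smallest value that 3 libraries against 3 allow. Without XLOC_014842, the highest locus, the difference was −14.5 points.

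In RSV the share was 15.6%, 20.5% and 12.1% in Acerra (16.1% ± 4.21, SD, n = 3), against 21.7%, 21.7% and 55.5% in Sarno (33.0% ± 19.5, SD, n = 3). The groups did not overlap, and Sarno replicate 3 was far above the rest. The difference was −16.9 points (exact two-sided permutation test, p = 0.1), but −5.63 points without Sarno replicate 3 (p = 0.2, exact) and −7.91 points without the highest locus, XLOC_000900 (p = 0.4, exact). In H the share was 12.4%, 12.5% and 11.9% in Acerra (12.2% ± 0.340, SD, n = 3), against 17.2%, 14.0% and 9.71% in Sarno (13.6% ± 3.75, SD, n = 3). The Sarno libraries of H lay on both sides of the Acerra ones (difference −1.38 points, p = 0.7, exact two-sided permutation test), and without Sarno replicate 1 the difference was 0.402 points (p = 0.8, exact). Longer unannotated loci, many times more numerous, held between 0.775% and 1.60% in any library.

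**Figure D2:**
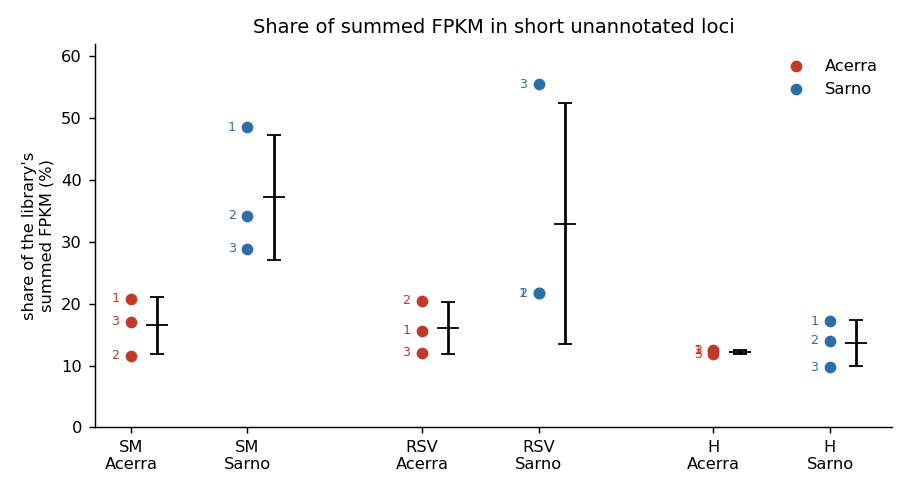
Share of a library's summed FPKM held by short unannotated loci, in percent, with one point per library, Acerra left of Sarno within SM, RSV and H, numbered by replicate, and beside them the mean ± SD of each group of 3. The Sarno libraries of SM lie between 28.9% and 48.5%, above the Acerra libraries, and RSV Sarno replicate 3 stands alone at 55.5%.

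RSV Sarno replicate 3 stood apart in its summed FPKM and over most of the short loci. Its values summed to 3279110 FPKM, against 1084580 to 1268490 FPKM in the other RSV libraries, and longer annotated loci held 42.6% of the sum, against 75.8% to 85.3%. It was the highest of the 6 libraries for 93 of 155 short unannotated loci. Relative to the mean of the variety, the median log2 level of short unannotated loci was 1.18 in this library, while the median over all loci tested was −0.003. In H, Sarno replicate 3 had a median of −0.63 over short unannotated loci and −0.02 over all loci. The share, the spread and the count of loci that passed in RSV are given with and without RSV Sarno replicate 3, while the RSV mean levels are given only with it.

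Replicates of a location agreed less for short unannotated loci than for longer ones. The median over loci of the SD between replicates was 0.728 on the log2 scale in SM, 0.963 in RSV and 0.716 in H. It was 0.325, 0.293 and 0.339 for longer unannotated loci, and 0.196, 0.189 and 0.218 for longer annotated loci. Annotated loci of at most 300 bp had values of 0.709, 0.748 and 0.784. Between 10 and 1000 FPKM, the medians were 0.713, 0.967 and 0.785 for short unannotated loci, against 0.168, 0.160 and 0.192 for longer annotated loci. Without Sarno replicate 3 the RSV value was 0.590. These medians describe loci of the same libraries and were not tested.

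A test of Acerra against Sarno was made within each variety, with limma on all loci that averaged at least 0.5 FPKM and a threshold of 0.05 on the adjusted p. In SM, 19 of 137 short unannotated loci passed (13.9%), 5 higher in Acerra and 14 higher in Sarno, against 8.21% of all loci tested (6.07% higher in Acerra, 2.14% in Sarno). In RSV, 18 of 154 passed (11.7%), 7 higher in Acerra and 11 higher in Sarno, against 11.8% of all loci (6.11% and 5.72%). In H, 14 of 103 passed (13.6%), 11 higher in Acerra and 3 higher in Sarno, against 8.83% of all loci (6.58% and 2.26%). For annotated loci of at most 300 bp, the shares were 17.5%, 17.6% and 21.3%.

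Fold changes were large whether or not they passed. Log2 fold changes of 1 or more in either direction were seen in 47.4% of the short unannotated loci of SM, 46.1% of RSV and 43.7% of H, against between 9.01% and 10.5% of all loci. Among annotated loci of at most 300 bp, the shares were 52.1%, 43.6% and 49.3%. The median log2 fold change was −0.08 in SM, −0.56 in RSV and 0.40 in H, beside medians over all loci of 0.02, −0.02 and 0.10. Rescaling the libraries by their median ratio moved the median of all loci in H to −0.02. The values of the 3 Acerra libraries did not overlap with those of the 3 Sarno libraries for 48 short unannotated loci in SM (35.0%). Of these, 18 were higher in Acerra and 30 in Sarno. Over all loci tested in SM, the share was 33.1% (18.2% higher in Acerra, 14.9% in Sarno). There were 47 such loci in RSV (30.5%), 10 higher in Acerra and 37 in Sarno, against 37.9% of all loci (18.5% and 19.4%). In H there were 36 (35.0%), 27 higher in Acerra and 9 in Sarno, against 36.9% of all loci (24.5% and 12.4%).

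**Figure D3:**
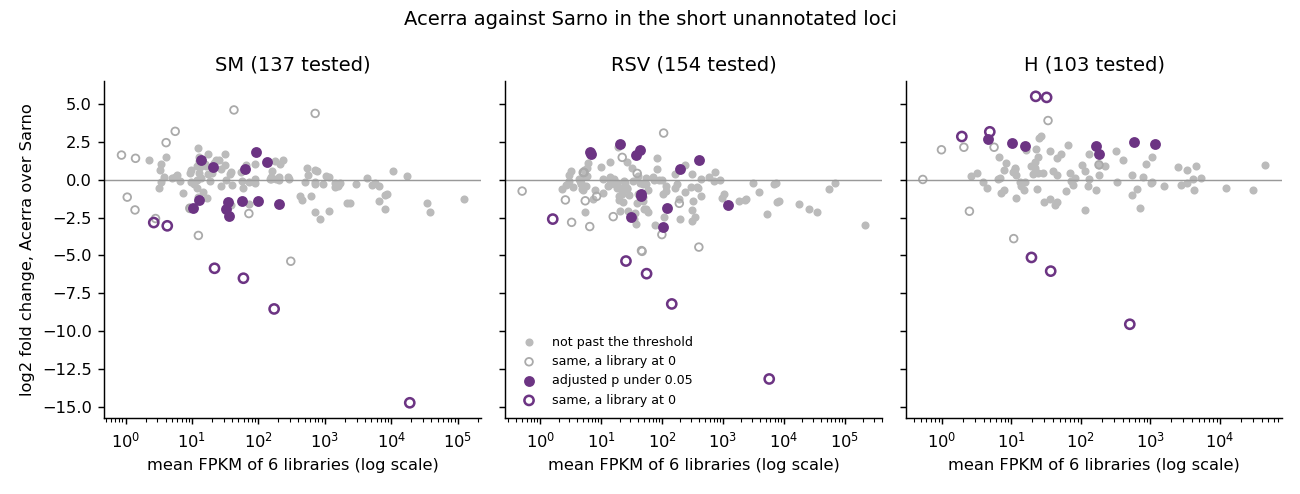
Log2 fold change of Acerra over Sarno (vertical axis) against mean FPKM (log scale) for the 137, 154 and 103 tested short unannotated loci of SM, RSV and H. Coloured symbols passed the threshold of 0.05 on the adjusted p and open symbols have a library at 0. The largest changes that passed are open symbols, down to −14.70 in SM, and those with no library at 0 reach 2.42, 3.13 and 2.68 in absolute value.

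The calls rested on different libraries in each variety, and the share of all loci that passed moved with them. In SM, 11 short loci passed without Acerra replicate 2, when 3.2% of all loci passed, and 6 without Acerra replicate 3, when 1.97% did. In RSV, 10 passed without Acerra replicate 1 (3.2% of all loci), 9 without Acerra replicate 2 (3.78%) and 8 without Acerra replicate 3 (3.63%). Without Sarno replicate 1, 9 passed (3.27% of all loci), and without Sarno replicate 2, 10 passed (3.84%). Without Sarno replicate 3, 27 short loci of RSV passed, when 22.8% of all loci passed. In H, 6 passed without Acerra replicate 1 (0.453% of all loci) and 22 without Sarno replicate 3 (9.99%). In H, 0 passed with limma without Acerra replicate 2 (0.0166% of all loci) or without Acerra replicate 3 (0.0221%), where 37 and 36 short loci had an unadjusted p under 0.05. In the fit of H with all 6 libraries, 39.8% of short unannotated loci had such a p, against 29.7% of all loci. In the fits without a library, the counts by unadjusted p were not compared with those over all loci.

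The largest fold changes that passed coincided with a value of exactly 0 in a particular library. Of the loci that passed, 6 of 19 in SM, 5 of 18 in RSV and 7 of 14 in H had at least 1 library at 0. In all but 1 of these 18, H XLOC_014748, the library at 0 was, alone or with another, Acerra replicate 2 or Sarno replicate 3. The median absolute log2 fold change was 6.17 in SM, 6.20 in RSV and 5.41 in H for those with a 0, against 1.44, 1.70 and 2.31 for those without. With Acerra replicate 2 at 0, 6 loci in SM, 5 in RSV and 3 in H passed as higher in Sarno, and with Sarno replicate 3 at 0, 3 loci in H passed as higher in Acerra.

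The other libraries of the same location were also low when Acerra replicate 2 or Sarno replicate 3 was at 0, and not when another replicate was. Over the 3 varieties there were 24 cases in which Acerra replicate 2 or Sarno replicate 3 alone was at 0 among the 3 libraries of its location. In all 24, the higher of the other libraries was under 5 FPKM (median 0.915 FPKM, between 0.0637 and 3.16). In the 31 cases with another replicate alone at 0, the median was 19.3 FPKM (between 0.607 and 634 FPKM), and 6 were under 5 FPKM. These cases were noticed in the values and have no test.

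**Figure D4:**
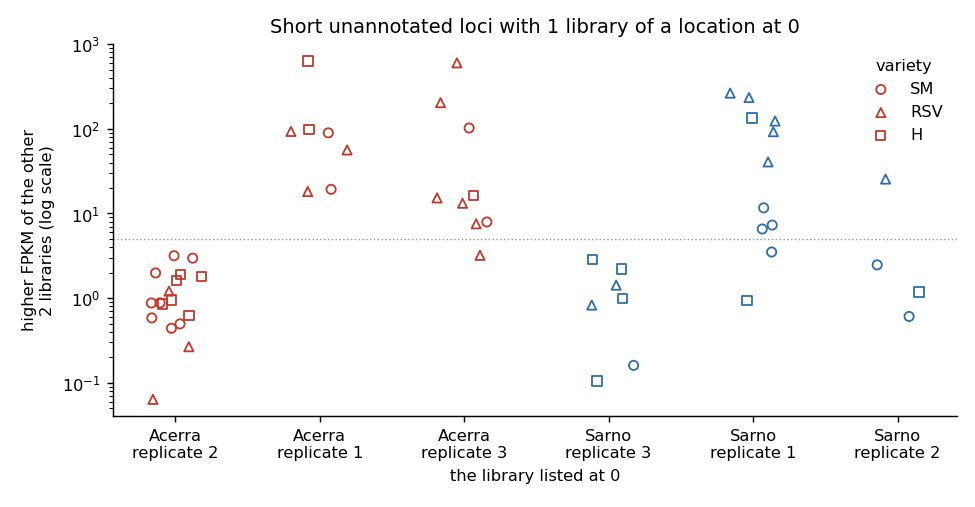
The higher FPKM of the other libraries of a location (vertical axis, log scale) for each short unannotated locus with exactly 1 of the 3 libraries of that location at 0, by the library at 0, with a symbol for each variety, the Acerra libraries left of the Sarno ones and a dotted line at 5 FPKM. The 24 cases with Acerra replicate 2 or Sarno replicate 3 at 0 lie under 5 FPKM, while 25 of the 31 others lie above it.

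Values beside such a 0 were also on another grid than those of equal-length loci above 0 in every library. If FPKM divides by the full locus length, the product of FPKM and length grows by 1 fixed step for each fragment. The step of a library was estimated from annotated loci of at most 300 bp with the same library at 0. It was chosen to make many of their values whole multiples, so the 592 of 685 (86.4%) that were whole within 0.03 steps do not check it. Of the 60 values of short unannotated loci beside a 0 in Acerra replicate 2 or Sarno replicate 3, 54 (90%) were whole multiples of it, up to 41 steps, and 3 were below 1 step. The lowest rate among the libraries with more than 3 values was in RSV Acerra replicate 3, with 2 of 5. In SM Acerra replicate 1, whose step was 37.9 FPKM × bp, 7 of 8 such values were whole, with a median of 3.00 steps. In the same library, the 123 values of loci with Acerra replicate 2 above 0 had a median of 253 steps. In SM Acerra replicate 3 (step 34.0 FPKM × bp), 9 of 9 were whole, with a median of 3 steps, against a median of 281 steps over 123 others.

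Loci above 0 in every library also showed whole ratios, more often at equal length. Of 678 pairs of short unannotated loci of equal length in the same library, 175 (25.8%) had a ratio of FPKM within 0.1% of a ratio of whole numbers up to 12, against 183 of 6168 pairs (2.97%) whose lengths were 1 to 5 bp apart. In SM Acerra replicate 1, the 3 such loci of 117 bp had 190.0, 285.0 and 475.0 FPKM, which are 2, 3 and 5 times 95.0 FPKM. In RSV Acerra replicate 1, the 4 such loci of 222 bp had 5.68, 14.2, 17.1 and 19.9 FPKM, or 2, 5, 6 and 7 times 2.84 FPKM. The step of loci beside a 0 would be 0.324 FPKM at 117 bp in SM Acerra replicate 1 and 0.143 FPKM at 222 bp in RSV Acerra replicate 1. The step of the loci above 0 was thus up to 293 and 19.8 times larger, where a common factor of the whole numbers would make it smaller. For a locus with a 0 of this kind, its low values and the values of the other location therefore need not share a scale. Its fold change, direction and p are given as fitted. They give neither the size nor the direction of a difference in RNA, nor a bound on it, and the origin of the grids was not tested.

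When only loci above 0 in every library were tested, an alternative chosen after seeing the data, 14 of 118 short unannotated loci passed in SM (5 higher in Acerra, 9 in Sarno), against 8.24% of all loci. In RSV, 13 of 132 passed (7 higher in Acerra, 6 in Sarno), against 11.8%. In H, 8 of 88 passed, all higher in Acerra, against 9.1%.

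In SM, the loci with the largest changes were higher in Sarno. XLOC_022823 (103 bp, chr7:40310604-40310706), between Solyc07g032640 and Solyc07g032650, had 1.10, 0 and 2.97 FPKM in Acerra, against 31188, 37477 and 44914 FPKM in Sarno. The Acerra libraries were near or at 0, and replicates 1 and 3 stood at 3 and 9 steps. The fitted log2 fold change was −14.70, with −15.67 at a pseudocount of 0.1 and −14.17 at 1, and it passed in each of the 6 fits that left out a library. The same 2 pseudocounts give the ranges for the other loci with a library at 0, whose fitted values depend on the constant.

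XLOC_028018 (130 bp, chr9:48505128-48505257), between Solyc09g059000 and Solyc09g059020, had 0.584, 0 and 0.261 FPKM in Acerra, against 331, 102 and 599.7 FPKM in Sarno (fitted log2 fold change −8.52, between −9.87 and −7.77). XLOC_008615 (130 bp, chr2:39648784-39648913), between Solyc02g081070 and Solyc02g081080, had 0.875, 0 and 0.783 FPKM in Acerra, against 145, 187 and 23.5 FPKM in Sarno (−6.50, between −7.61 and −5.87). In both, Acerra replicate 2 was at 0 and all listed Sarno values were above the Acerra ones, with which they need not share a scale. In Acerra replicates 1 and 3, XLOC_028018 stood at 2 steps and 1 step, and XLOC_008615 at 3 steps in each. In Acerra replicate 2, 3 loci of 130 bp above 0 in every library had a step of 72.0 FPKM. The direction of both changes in RNA was therefore not settled. XLOC_025448 (153 bp, chromosome 8) and XLOC_012018 (193 bp, chromosome 3) were of the same kind, with fitted log2 fold changes of −5.84 (between −7.24 and −5.08) and −3.05 (between −4.12 and −2.49), and XLOC_012018 passed in 3 of the 6 fits that left out a library.

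The 5 loci of SM that were higher in Acerra had no library at 0 and changed by less. XLOC_020258 (153 bp, chr6:35794689-35794841) had 134, 131 and 152 FPKM in Acerra, against 63.2, 44.4 and 20.5 FPKM in Sarno (log2 fold change 1.83, SE 0.38, limma adjusted p = 0.0348, Benjamini-Hochberg), and it passed in 2 of the 6 fits that left out a library. XLOC_020204 (225 bp, chr6:9743049-9743273) had 27.1, 24.5 and 27.4 FPKM in Acerra, against 15.1, 14.7 and 14.3 FPKM in Sarno. Its libraries agreed closely within each location, and its log2 fold change of 0.82 (SE 0.09, limma adjusted p = 0.00569, Benjamini-Hochberg) passed in each of the 6 fits that left out a library. XLOC_025370, XLOC_020199 and XLOC_028005 had log2 fold changes of 1.26, 1.17 and 0.72, and passed in 2, 1 and 1 of those fits.

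In RSV, the locus with the largest change was XLOC_033035 (105 bp, chr11:17737775-17737879), between Solyc11g028320 and Solyc11g028330. It had 0.303, 0 and 0 FPKM in Acerra, against 2402, 2020 and 29888 FPKM in Sarno. The fitted log2 fold change was −13.13, between −15.01 and −12.23 over the pseudocounts. XLOC_033036 (136 bp), which lies between the same genes, had 0, 56.2 and 18.1 FPKM in Acerra, against 45.2, 50.7 and 424 FPKM in Sarno, and did not pass (−3.63, limma adjusted p = 0.234, Benjamini-Hochberg).

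XLOC_027948 (136 bp, chr9:48505838-48505973) of RSV lies between the same genes as XLOC_028018 of SM. It had 0.0170, 0 and 0.0637 FPKM in Acerra, against 45.2, 113 and 705 FPKM in Sarno (fitted log2 fold change −8.19, between −10.27 and −7.24), and the low values stood below 1 step. XLOC_033003 (184 bp, chr11:6907697-6907880), between Solyc11g013680 and Solyc11g013690, had 1.21, 0 and 0.465 FPKM in Acerra, against 24.8, 49.5 and 258 FPKM in Sarno (−6.20, between −7.35 and −5.56). As in SM, Acerra replicate 2 was at 0 in each of them. XLOC_005103 (165 bp, chr1:21595435-21595599) had no library at 0, with 16.3, 10.8 and 23.0 FPKM in Acerra, against 85.3, 85.7 and 409 FPKM in Sarno (−3.13, limma adjusted p = 0.0295, Benjamini-Hochberg), and it passed in 1 of the 6 fits that left out a library.

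Of the 7 loci of RSV that were higher in Acerra, XLOC_008485 (188 bp, chr2:4589980-4590167) changed most. It had 38.9, 32.1 and 31.4 FPKM in Acerra, against 6.53, 3.97 and 9.55 FPKM in Sarno, a log2 fold change of 2.34 (SE 0.29, limma adjusted p = 0.00774, Benjamini-Hochberg) that passed in each of the 6 fits without one library. RSV Sarno replicate 3 was not low here, as its value was the highest of the Sarno libraries. XLOC_020119, XLOC_035619, XLOC_008562 and XLOC_027958 had log2 fold changes of 1.96, 1.82, 1.70 and 1.61, and passed in 1, 1, 2 and 3 of those fits.

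In H, most of the loci that passed were higher in Acerra. XLOC_032915 (150 bp, chr11:8220529-8220678) had 40.5, 28.3 and 64.4 FPKM in Acerra, against 0.667, 0.982 and 0 FPKM in Sarno (fitted log2 fold change 5.48, between 4.85 and 6.59). XLOC_033002 (136 bp, chr11:47339846-47339981) had 70.1, 61.1 and 58.0 FPKM in Acerra, against 2.21, 1.95 and 0 FPKM in Sarno (5.41, between 4.92 and 6.34). In both, Sarno replicate 3 was at 0, and the other Sarno values stood at 5, 10, 15 and 18 steps. In H Sarno replicate 2, 3 loci of 142 bp above 0 in every library had a step of 8.19 FPKM. The step beside a 0 would be 0.104 FPKM at that length. The direction of both changes in RNA was therefore not settled. XLOC_027862 (229 bp, chr9:28872895-28873123) had no library at 0, with 8.59, 6.25 and 9.96 FPKM in Acerra, against 1.36, 0.667 and 0.631 FPKM in Sarno (2.68, SE 0.27, limma adjusted p = 0.0174, Benjamini-Hochberg). XLOC_014748 and XLOC_030525 had a Sarno library at 0 and fitted log2 fold changes of 3.14 (between 2.60 and 4.16) and 2.83 (between 2.09 and 4.53). Of the 6 fits that left out a library, XLOC_027862 passed in 3, XLOC_032915 in 4, XLOC_033002 in 3, XLOC_014748 in 3 and XLOC_030525 in 4.

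The 3 loci of H that were higher in Sarno all had Acerra replicate 2 at 0. XLOC_032963 (111 bp, chr11:26773743-26773853) had 0.851, 0 and 0.188 FPKM in Acerra, against 2454, 401 and 189.7 FPKM in Sarno (fitted log2 fold change −9.53, between −10.89 and −8.78). XLOC_020096 (161 bp, chr6:27488045-27488205), between Solyc06g048390 and Solyc06g048400, had 0.783, 0 and 0.950 FPKM in Acerra, against 122, 67.0 and 31.1 FPKM in Sarno (−6.03, between −7.13 and −5.41). XLOC_030516 (150 bp, chr10:36912543-36912692) had 1.89, 0 and 0.417 FPKM in Acerra, against 46.9, 47.8 and 20.1 FPKM in Sarno (−5.13, between −6.25 and −4.52). Each of the 3 passed in 4 of the 6 fits that left out a library.

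Because the coordinates of the assemblies differ, loci were matched across varieties by the annotated genes on each side. A short unannotated locus was found in all 3 varieties in 52 gene intervals. These intervals held 55 of 138 short loci of SM (39.9%), 55 of 155 of RSV (35.5%) and 56 of 104 of H (53.8%). No short locus of another variety lay in the interval for 34 loci of SM (24.6%), 56 of RSV (36.1%) and 23 of H (22.1%). SM and H shared 65 intervals (49.2% of those of SM, 66.3% of those of H), RSV and H shared 62 (41.9% and 63.3%), and RSV and SM shared 85 (57.4% and 64.4%).

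Loci found in all 3 varieties were higher and shorter than those with no match. Their median level was 136 FPKM in SM, 105 FPKM in RSV and 68.8 FPKM in H, against 19.4, 16.6 and 8.39 FPKM for loci with no match. Their median length was 171 bp in SM, 167 bp in RSV and 162.5 bp in H, against 229, 210 and 200 bp. They held 73.7% of the FPKM of short unannotated loci in SM, 74.2% in RSV and 92.9% in H. Of the 69 SM loci with no short match in H, 15 had an unannotated locus longer than 300 bp between the same genes of H. These values are descriptions.

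The order of levels was similar between varieties. Spearman's correlation of mean FPKM over one-to-one matches was 0.87 between SM and H (n = 58), 0.90 between RSV and H (n = 56) and 0.87 between RSV and SM (n = 77), as a description across loci. Where matched loci differed in length by more than 20 bp, the longer one had the lower mean in 10 of 13 matches of SM and H, 8 of 8 of RSV and H and 19 of 20 of RSV and SM. The locus between Solyc09g065710 and Solyc09g065720 was 134 bp long in SM (mean 1043 FPKM), 255 bp long in RSV (22.0 FPKM) and 134 bp long in H (583 FPKM). The locus between Solyc05g025560 and Solyc05g025570 was 180 bp long in SM (208 FPKM), 284 bp long in RSV (19.3 FPKM) and 285 bp long in H (25.3 FPKM). Among the 46 loci matched one-to-one in all 3 varieties, the highest mean was in SM for 21, in RSV for 20 and in H for 5. The RSV means include Sarno replicate 3, and these counts were not made without it.

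**Figure D5:**
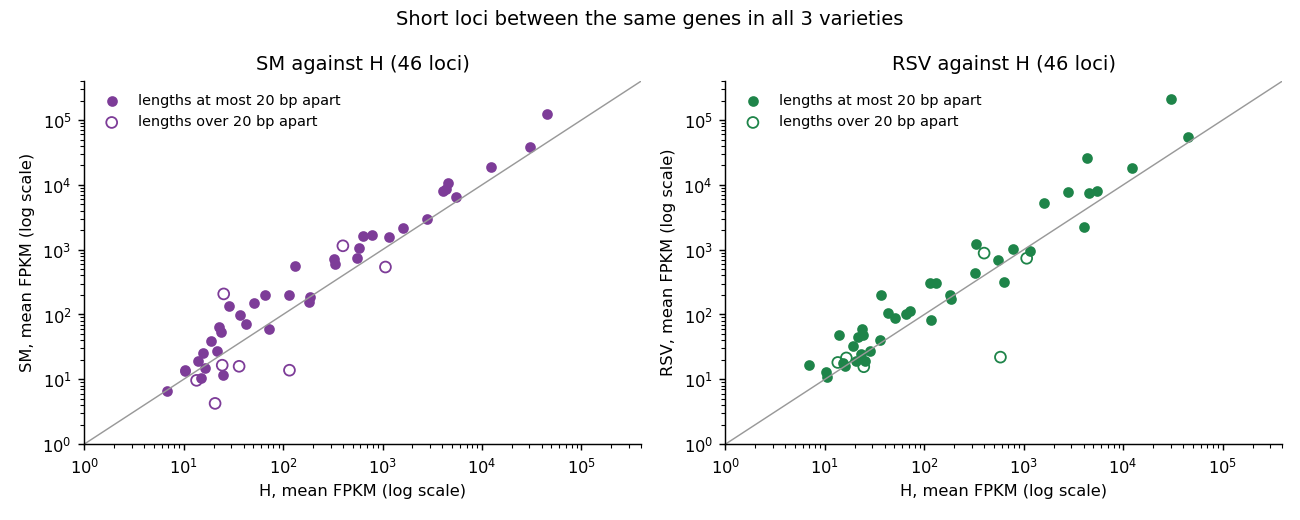
Mean FPKM of the 46 short unannotated loci found once between the same genes in all 3 varieties, SM against H and RSV against H, on log scales with a line at equal levels. Open symbols mark matches whose lengths differ by more than 20 bp, and levels in SM and RSV follow those in H over the whole range, up to 45298 FPKM in H.

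The 8 matched loci with the highest levels had some of the highest FPKM of each variety. The locus between Solyc04g047830 and Solyc04g047850 averaged 124058 FPKM in SM, 54502 FPKM in RSV and 45298 FPKM in H, and that between Solyc00g009800 and Solyc00g010210 averaged 38181, 210787 and 30165 FPKM. The locus between Solyc07g022830 and Solyc07g022840, of 108 bp in every variety, averaged 6530, 8138 and 5444 FPKM. That between Solyc07g021570 and Solyc07g021580 averaged 7943, 2271 and 4063 FPKM. On chromosome 9, the locus between Solyc09g057860 and Solyc09g057870 averaged 10539, 7451 and 4585 FPKM, and that between Solyc09g011790 and Solyc09g011800 averaged 8580, 25578 and 4329 FPKM. On chromosome 1, that between Solyc01g058350 and Solyc01g058360, which includes XLOC_005156 of H, averaged 2923, 7734 and 2774 FPKM. RSV Sarno replicate 3 was the highest RSV library at each of the 8. It held between 38.3% and 78.5% of the sum over the RSV libraries, so the RSV means rest largely on that library.

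Location responses of matched loci were compared as an interaction of variety and location with limma. Of 46 loci matched in all 3 varieties, 6 had a higher mean log2 level in Acerra in every variety and 14 had a higher one in Sarno in every variety. Of them, 15 passed the location test in at least one variety and 0 in all 3. The same counts were not made over all matched loci, so whether they differ from the background was not tested. For the interaction, 1 of 58 matched short loci passed between SM and H, against 0.0855% of all matched loci, and 2 of 77 between RSV and SM, against 0.411%. Between RSV and H, 0 of 56 passed with limma, against 0.0527% of all matched loci, and 15 had an unadjusted p under 0.05. Over all matched loci of that pair, 2477 of 15183 had such a p.

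The locus between Solyc07g032640 and Solyc07g032650, 103 bp long in every variety, passed in both. XLOC_022744 of RSV had 7932, 6706 and 8624 FPKM in Acerra, against 12522, 21058 and 50802 FPKM in Sarno. XLOC_022694 of H had 8488, 16457 and 5621 FPKM in Acerra, against 21929, 12412 and 9392 FPKM in Sarno. Neither passed the location test (log2 fold changes −1.62 and −0.57), while XLOC_022823 of SM was near or at 0 in Acerra. The interaction was −14.13 for SM against H (SE 0.89, limma adjusted p = 1.8e-05, Benjamini-Hochberg) and 13.08 for RSV against SM (SE 0.91, limma adjusted p = 0.000115, Benjamini-Hochberg), and each passed in all 12 fits that left out a library. Since the SM values in Acerra stood on the grid described for loci beside a 0, the sizes and directions of these interactions are given as fitted only.

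The other interaction was between RSV and SM for the locus between Solyc10g055640 and Solyc10g055650. XLOC_030635 of RSV (231 bp) had 4.95, 4.19 and 6.73 FPKM in Acerra, against 3.94, 7.28 and 3.41 FPKM in Sarno. XLOC_030720 of SM (224 bp) had 0.440, 0 and 0.303 FPKM in Acerra, against 8.39, 3.44 and 3.39 FPKM in Sarno. The RSV groups overlapped and the SM groups did not. The interaction of 2.98 (SE 0.53, limma adjusted p = 0.0477, Benjamini-Hochberg) passed in 2 of 12 fits that left out a library, and not under the other pseudocounts, minimum levels, median-ratio rescaling or quantile normalization. In both intervals SM Acerra replicate 2 was at 0. Among matched loci above 0 in every library, 0 short loci passed an interaction with limma in any pair, of 52 for SM and H (0.0134% of all loci), 49 for RSV and H (0.0134%) and 70 for RSV and SM (0.303%), and 8, 12 and 5 had an unadjusted p under 0.05. Over all matched loci above 0 in every library, 1661 of 14958, 2430 of 14936 and 1996 of 14838 had such a p.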

How the data were processed

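RNA of red ripe fruit was sequenced in 18 libraries. Per the labels and the methods, the authors made TruSeq libraries, aligned reads with TopHat2 2.0.6 to the reference (H) or the assembly of the variety (SM, RSV), and estimated expression with Cufflinks 2.1.1, guided by the annotation and with correction of multiply mapped reads, in 1 run per variety. The deposited values are FPKM per locus and library, written with decimal commas. Read counts were not used here, so no count model was applied, and no sequence was read.

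Loci were selected by length and missing gene ID, and matched across varieties by the nearest annotated gene on each side. Starts were raised by 1 so that coordinates count from 1. Loci averaging at least 0.5 FPKM were tested on log2(FPKM + 0.5) with limma 3.58.1 in R 4.3.3 (trend, two-sided), with Benjamini-Hochberg adjustment over all loci of a variety, or over all matched loci for interactions. The scripts were tested on simulated data. Shares used an exact permutation test over every split of the libraries. Spearman's correlations of matched loci used scipy 1.17.1. Tables were read with pandas 2.3.3, and matplotlib 3.10.9 drew the plots.

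Named loci were the 3 highest of each variety, up to 5 with the largest change in each direction among those past the threshold without overlap, 2 on each side of the length limit, up to 8 matched loci with the highest lowest mean, and those past the interaction threshold. A few others were named after their values were seen, among them XLOC_033036, XLOC_005156 and 2 intervals chosen for their lengths. The loci and rules were chosen with earlier results of these data known. Alternatives were other pseudocounts, minimum levels, length limits, scalings, variance models, a replicate block and the omission of each library. One, loci above 0 in every library, was added after seeing the data.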

Additional observations from a re-analysis of the deposited data

Results flagged for a closer look

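Fitted location responses differed between varieties at matched short loci in 3 comparisons. Each used limma's test of the interaction of variety and location with Benjamini-Hochberg adjustment. For the locus between Solyc07g032640 and Solyc07g032650, the log2 response of Acerra over Sarno in SM minus that in H was −14.13 (SE 0.89, adjusted p = 1.8e-05), and in RSV minus that in SM it was 13.08 (SE 0.91, adjusted p = 0.000115). These comparisons share the SM libraries, so they are not separate evidence. For the locus between Solyc10g055640 and Solyc10g055650, the response in RSV minus that in SM was 2.98 (SE 0.53, adjusted p = 0.0477). It passed in 2 of 12 fits that left out a library, with an adjusted p of up to 0.134, and in none of those with another pseudocount, minimum level, median-ratio rescaling or quantile normalization. In both intervals the SM locus has Acerra replicate 2 at 0, and the part of that 0 in the result was not tested. The Acerra values of the SM loci need not share a scale with those of Sarno, so the sizes and directions are given as fitted only. Whether the responses differed in RNA was not settled.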

How the results depend on the processing

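Of the counts of short unannotated loci that passed between Acerra and Sarno, SM had 12 at a length limit of 200 bp and 10 with no minimum level, in place of 19, and H had 9 at 200 bp and 8 among loci above 0 in every library, in place of 14. Over all loci of SM, 4.38% passed with no minimum, against 8.21% in the main fit. Over all loci of H, 9.1% passed among loci above 0 in every library, against 8.83%. The other settings kept all 3 counts within 1.5 times. When 1 library was left out, the counts were between 6 and 22 in SM, 8 and 27 in RSV and 0 and 22 in H. The share of all loci that passed was then between 1.97% and 9.05% in SM, 3.2% and 22.8% in RSV and 0.0166% and 9.99% in H. For interactions, SM against H had 3 at a minimum of 1 FPKM and 0 among loci above 0 in every library, in place of 1 (between 1 and 2 without 1 library), and RSV against H had between 0 and 1 without 1 library. RSV against SM had 1, in place of 2, under pseudocounts of 0.1 and 1, no minimum, a minimum of 1 FPKM, median-ratio rescaling and quantile normalization, 0 among loci above 0 in every library, and between 1 and 4 without 1 library. Over all matched loci of SM and H, 16 of 13989 passed at a minimum of 1 FPKM, against 13 of 15197 in the main fit. Without RSV Sarno replicate 3, where 4 short loci passed between RSV and SM, 349 of 15061 matched loci passed, against 62 of 15078 in the main fit. Why these counts moved was not tested, beyond the smaller number of loci at 200 bp.

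The difference in share, Acerra minus Sarno, was between −24.9 and −15.1 points in SM, −22.5 and −5.63 in RSV and −3.33 and 0.402 in H when 1 library was left out, and it changed sign in H without Sarno replicate 1 (0.402). The median SD between replicates was then between 0.622 and 0.764 in SM, 0.590 and 1.03 in RSV and 0.548 and 0.747 in H.

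Among named loci, none of which had passed, the log2 fold change turned in RSV XLOC_027932 (quantile 0.85, between −0.69 and 0.47 without 1 library) and XLOC_014765 (quantile 0.44, between −1.23 and 0.000806), and in RSV XLOC_027945 (quantile 0.47, between −0.77 and 0.62 without 1 library). It also turned in H XLOC_022680 (median ratio −0.052, quantile −0.10, between −0.11 and 0.35) and XLOC_022675 (median ratio −0.081, quantile −0.21, between −0.13 and 0.38), and in SM XLOC_005178 (between −0.86 and 0.27).

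With the replicate number as a block, 28 loci passed in SM (14 higher in Acerra, 14 in Sarno), 15 in RSV and 15 in H, when 7%, 6.12% and 6.15% of all loci passed. Same-numbered libraries of the 2 locations did not deviate together in every pair (r between −0.008 and 0.24 in SM, −0.03 and 0.27 in RSV, 0.02 and 0.11 in H), so the numbers were not taken as a pairing. Values of a few steps lie too near the step for a fold against them to be precise.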
